A study of Mus musculus with 115 samples.

Results

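The copine family was followed gene by gene in single dentate granule cells of the mouse, through the rows Cpne1, Cpne2, Cpne3, Cpne4, Cpne5, Cpne6, Cpne7, Cpne8 and Cpne9, which are 9 of the 22870 genes in the count table. The family was chosen by its CPM (counts per 1000000 counts of the cell) across treatment, EGFP class and title run in these same cells, so its levels are given as a description. Each library held the cytosol of a single cell drawn through a patch pipette and made with Nextera XT. The 4 groups of cells came from Rbp4-Cre mice, a line used to drive Cre in granule cells. All had a retrograde AAV encoding EGFP in the contralateral ventral hippocampus. EGFP therefore marks granule cells whose axon reaches across the midline. All also had a Cre-dependent mCherry virus in the recorded hippocampus, given together with kainic acid (KA), an agonist of a class of glutamate receptors used to bring on seizures, or with saline. Cells were taken 2 weeks later from the injected side, with or without mCherry, and neither age nor sex is given in the sources used here. The groups were KA EGFP+ (27 cells), KA EGFP- (36 cells), saline EGFP+ (5 cells) and saline EGFP- (27 cells).

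Copines are cytosolic proteins that bind membrane phospholipids when calcium rises. They carry a pair of C2 domains, the calcium-sensing module also found in synaptotagmins and protein kinase C, and an A domain through which they hold partner proteins. Cpne6 (N-copine) is the neuronal member best known in hippocampus, where it links calcium to the GTPase Rac1 in dendritic spines, and its mRNA was first described as responding to kainate and to strong synaptic activity. Much less is known of Cpne7 and Cpne8 in neurons.

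Labels and tables were set against each other first. The labels list 115 cells, and the authors' quality-passed table keeps 95. Of those 95, 13 carry a label of failed quality, and of the 20 left out, 12 carry a label of passed. Each of the 20 left-out cells follows, in order of titles, a cell labelled failed, and 0 of the kept cells do. Whether treatment and EGFP labels share such a shift was not tested. The comparisons of KA EGFP- with saline EGFP- and of KA EGFP+ with KA EGFP- cells were also made in cells whose neighbouring titles carry the same group label, which could not be done for those with saline EGFP+ cells. The study states 27, 36, 5 and 57 quality-passed cells for KA EGFP+, KA EGFP-, saline EGFP+ and saline EGFP-, of which the saline EGFP- cells beyond the 27 above were not analysed here. It states 9, 3, 3 and 3 mice in the same order, but the mouse behind each cell is not given in the labels. Each group is therefore a single sample, and differences are given with the SD over cells and with no test. Cell titles run M1 to M48 and M201 to M272. The first run holds KA cells alone, so treatment and title run cannot be told apart there. From M201 on, KA and saline titles alternate in blocks. Each block holds a single treatment, so treatment and block cannot be told apart there either.

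Depth ran from 1277978 to 56183007 counts per cell (median 5221619), and each cell had counts for 1469 to 9945 genes. Of 8 granule cell markers, 7, 7, 8 and 8 had counts in KA EGFP+, KA EGFP-, saline EGFP+ and saline EGFP- cells, led by Calb1 in each, and Tdo2 was at 0 in both KA groups. Their summed level had medians of 809, 729, 1492 and 2864 CPM in the same order. The lowest sum was 0 CPM, in a KA EGFP- cell. Microglia markers, all 12 of which had counts in every group, made up at least 0.1% of counts in 10 of 27 KA EGFP+, 4 of 36 KA EGFP-, 4 of 5 saline EGFP+ and 9 of 27 saline EGFP- cells.

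Cpne6 carried most of the family's mRNA after saline, and Cpne6 and Cpne7 together did so after KA. Per length (mean CPM per kilobase of exon), Cpne6 stood at 216.5, 205.4, 193 and 292 in KA EGFP+, KA EGFP-, saline EGFP+ and saline EGFP- cells, with SDs over cells of 168, 161, 174 and 237.6. Cpne7 stood at 108, 214.6, 0.0594 and 0.934 CPM per kilobase in the same order, with SDs of 131, 291, 0.133 and 3.27. In KA EGFP- cells the mean of Cpne7 thus reached that of Cpne6, and the gap between both was far smaller than their SDs. The medians there were lower for Cpne7 (119.74) than for Cpne6 (173). The means of Cpne7 and Cpne6 were 132 and 172 in titles M20 to M48, and 331 and 252.02 in titles M201 to M272. Cpne6 made up 60.4% of the summed copine level per length in KA EGFP+ and 46.6% in KA EGFP- cells, against 96.2% in saline EGFP+ and 91.9% in saline EGFP- cells. Cpne7 made up 30.2% of it in KA EGFP+ and 48.7% in KA EGFP- cells, against 0.0297% in saline EGFP+ and 0.293% in saline EGFP- cells. Within single cells, Cpne7 exceeded Cpne6 per length in 7 of 27 KA EGFP+ and 13 of 36 KA EGFP- cells, and in 0 of 5 saline EGFP+ and 0 of 27 saline EGFP- cells.

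The other 7 copines were far lower. In KA cells Cpne8 came next per length among members counted in more than a few cells, at 8.04 CPM per kilobase in EGFP+ and 12.6 in EGFP- cells. In saline cells the next was Cpne4, at 6.65 CPM per kilobase in EGFP+ and 15.2 in EGFP- cells. Cpne2 ranked 3 in KA EGFP+ cells (13.8 CPM per kilobase) only through 1 cell at 1093 CPM. Below Cpne6 and, after KA, Cpne7, the SD over cells was larger than the mean for every member counted in a group, so no neighbours in that order differed beyond their spread. The median cell had counts for 4 copines in both KA groups and for 2 in both saline groups. Depth also differed, with a median of 6140692, 5523526, 2697650 and 4031151 counts per cell in KA EGFP+, KA EGFP-, saline EGFP+ and saline EGFP- cells.

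**Figure D1:**
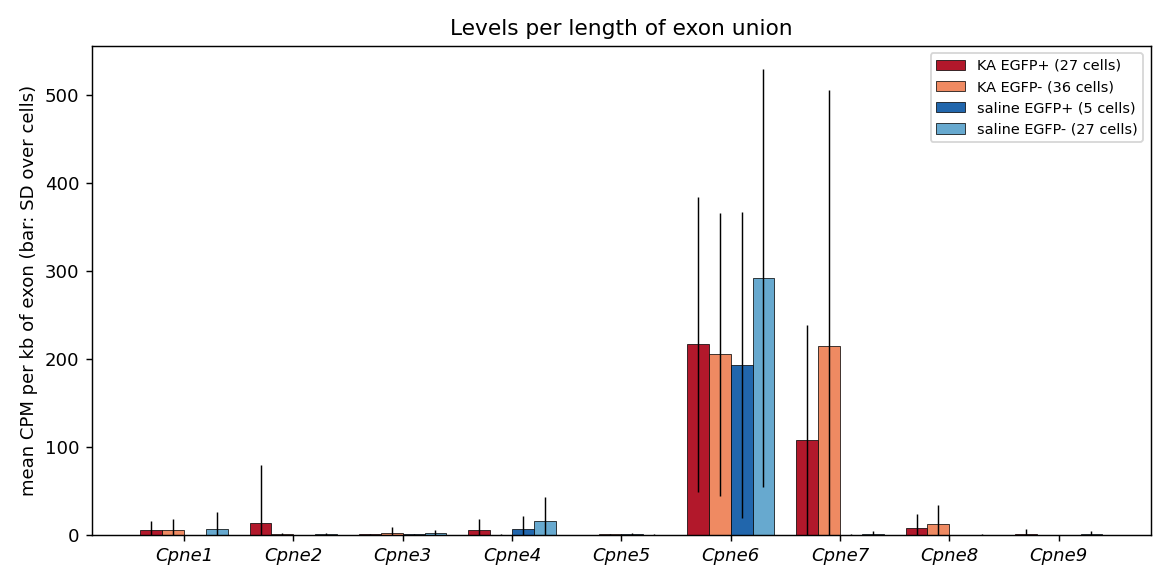
Mean level of each copine per length of its exon union (CPM per kilobase, linear axis from 0) in the 4 groups of cells, with bars for the SD over cells, cut off at 0 below. Cpne6 is high in every group, Cpne7 in both KA groups only (108 and 214.6 CPM per kilobase), and the other members lie near the axis.

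Cpne6 differed little between groups. It lies on chromosome 14 (55510445 to 55517431, plus strand, GRCm38) and had counts in 92 of 95 cells. Its level ran from 0 over a median of 939 to 2826 CPM in KA EGFP+ cells and from 0 over 738 to 2879 CPM in KA EGFP- cells. In the 5 saline EGFP+ cells it was 327, 876, 1940, 955 and 1.56 CPM, and in saline EGFP- cells it ran from 0.171 over a median of 962 to 3646 CPM. All 4 groups overlap over nearly their whole range. The mean log2(CPM+1) was 8.68 (SD 3.07) in KA EGFP+, 8.74 (SD 2.87) in KA EGFP-, 8.06 (SD 3.86) in saline EGFP+ and 9.06 (SD 3.13) in saline EGFP- cells. KA EGFP- minus saline EGFP- gave -0.32 on this scale, and -0.55 within titles M201 to M272, both well inside the SD over cells. At this single time point, 2 weeks after KA, Cpne6 was not higher than after saline in the EGFP- cells.

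A few cells had almost no Cpne6. In 3 KA EGFP+, 3 KA EGFP-, 1 saline EGFP+ and 3 saline EGFP- cells it was under 10 CPM, although such cells had a median of 4752026 counts, against 5287480 in the 85 others. They had fewer genes with a count (median 2457, against 5720) and a lower summed level of granule cell markers (median 647 CPM, against 1204 CPM). Of these 10 cells, 2 had Cpne7 at 10 CPM or more. What sets them apart was not tested.

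Cpne7 separated KA cells from saline cells more than any other copine. The gene lies on chromosome 8 (123117374 to 123135182, plus strand, GRCm38), and 67 bases of its exons, 1.27%, also belong to the microRNA gene Mir7080. KA EGFP+ cells had from 0 over a median of 341 to 2200 CPM, and KA EGFP- cells from 0 over 631 to 6968 CPM. Among the 5 saline EGFP+ cells 4 had no count and 1 had 1.56 CPM, whereas saline EGFP- cells had from 0 over a median of 0 to 83.3 CPM. The KA values fall into a high and a low set with a gap between them. In KA EGFP- cells, 30 of 36 lay at 87.3 CPM or above and the other 6 had no count, whereas in KA EGFP+ cells 18 of 27 lay at 90.1 CPM or above, 4 lay between 0 and 10 CPM and 5 had no count. Those 48 high KA cells all lay above the highest saline cell, and the other 15 lay within the saline range.

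The share of cells with a Cpne7 count changed little when the total count was made equal. After each cell was thinned to 1000000 counts, Cpne7 had a count in 21 of 27 KA EGFP+ cells (77.8%, exact 95% interval 57.7 to 91.4%) and 30 of 36 KA EGFP- cells (83.3%, 67.2 to 93.6%). It had one in 1 of 5 saline EGFP+ cells (exact 95% interval 0.505 to 71.6%) and 5 of 27 saline EGFP- cells (18.5%, 6.3 to 38.1%). Summed over cells, Cpne7 took 529 CPM (exact 95% Poisson interval 525 to 532) in KA EGFP+ and 859.72 CPM (856 to 863) in KA EGFP- cells, against 0.125 CPM (0.0152 to 0.452) in saline EGFP+ and 6.06 CPM (5.62 to 6.52) in saline EGFP- cells. The Poisson intervals cover counting error only, and the binomial ones treat cells as independent although cells of a mouse may be alike. Over the 63 KA cells, Spearman's rho of Cpne7 with the total count was -0.16, with the number of genes detected -0.04 and with the summed microglia markers 0.07.

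**Figure D2:**
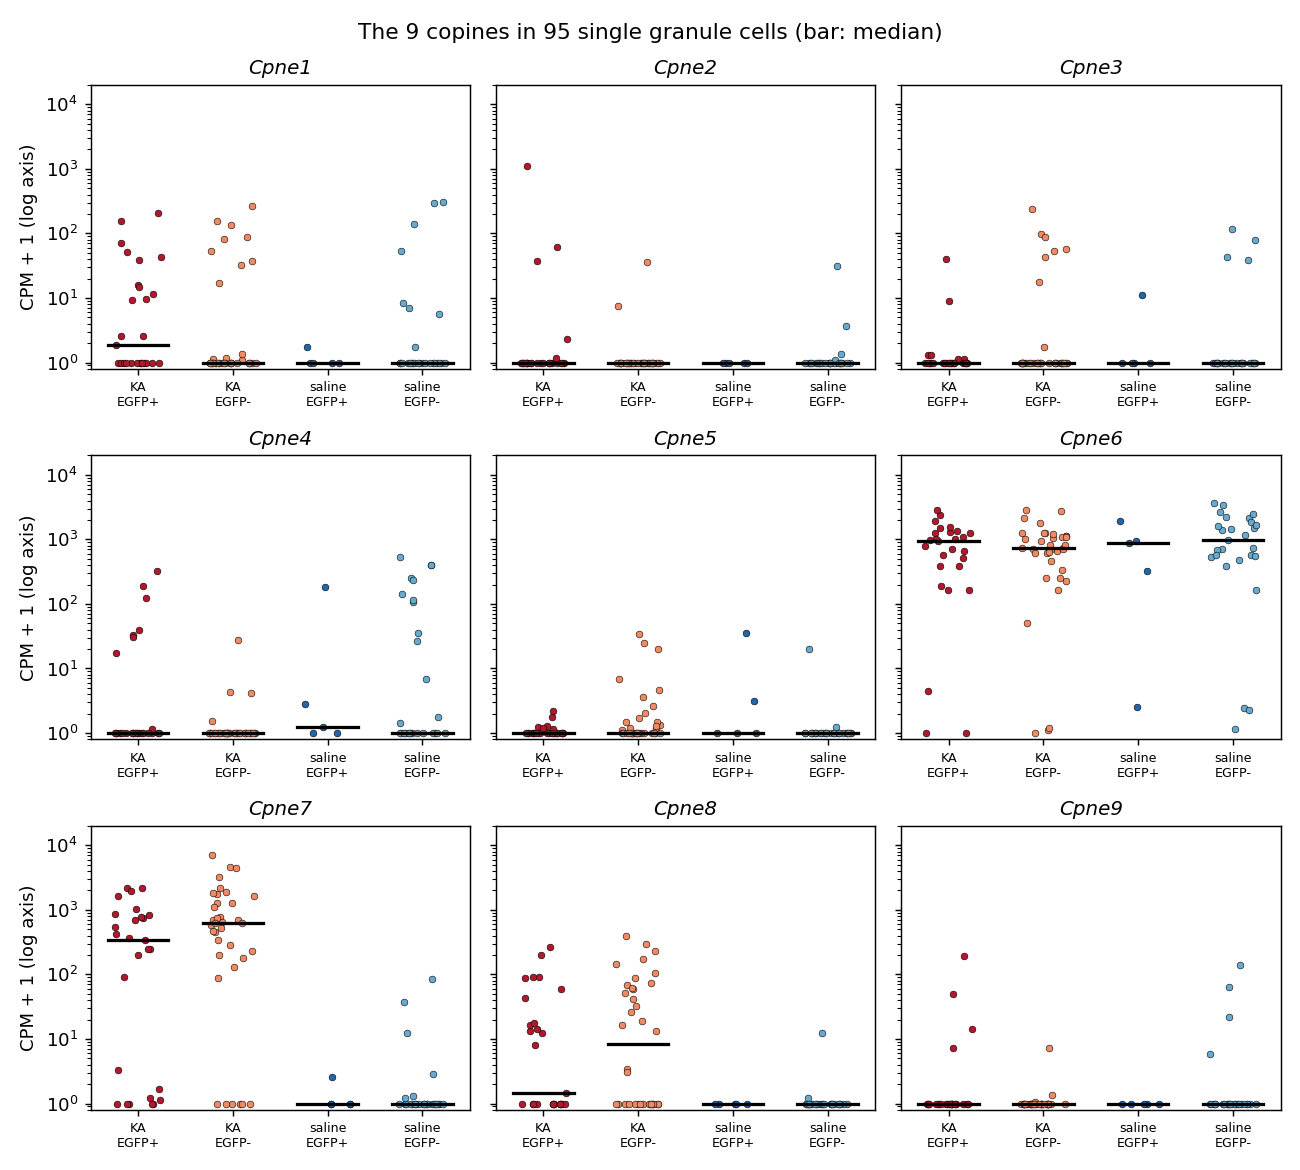
CPM + 1 of each copine (log axis) in every cell of the 4 groups, with the median as a bar, where points at 1 have no count. Cpne6 overlaps across groups, whereas 18 of 27 KA EGFP+ and 30 of 36 KA EGFP- cells lie above every saline cell for Cpne7. Cpne8 has counts mainly in KA cells and Cpne4 reaches its highest values in saline EGFP- cells.

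For KA EGFP- against saline EGFP- cells, the mean log2(CPM+1) of Cpne7 was 8.02 (SD 3.9, n = 36 cells) and 0.64 (SD 1.67, n = 27 cells), a difference of 7.38. A difference of 1 or more on this scale was counted among genes with a count in at least 25% of the cells of both groups together. Among 8561 such genes 29.9% were higher by that much in KA EGFP- cells and 9.87% were lower, and 3 genes, Cpne7 included, differed by 7.38 or more. Of the 9 copines, 6 passed this filter. Cpne7 and Cpne8 were higher by 1 or more, Cpne4 was lower, and Cpne1, Cpne5 and Cpne6 differed by less. With 2 of 6 higher and 1 of 6 lower, the members lie near the shares of all genes. A sparse gene such as Cpne8 passes largely through the group where it is high. The median difference was 0.35 for the 6 members that passed and 0.14 for all 9, beside 0.45 for all genes compared.

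Titles M201 to M272 hold both treatments, in alternating blocks of a single treatment each. Within these titles the Cpne7 difference was 8.43, with means of 9.08 (SD 3.2, n = 15) in KA EGFP- and 0.64 (SD 1.67, n = 27) in saline EGFP- cells. It was the highest of 7146 genes. There the background had turned round, with 9.22% of genes higher and 38.4% lower by 1 or more, and a median of -0.63. All 8 KA EGFP- cells of titles M209 to M216 had Cpne7, from 178 to 6968 CPM, as did all 5 of titles M265 to M272, from 87.3 to 4511 CPM. In titles M233 to M238 the KA EGFP+ cells had 1983 and 369 CPM and the KA EGFP- cells 526 and 0 CPM. The saline EGFP- blocks between them reached at most 0.304, 1.83 and 83.3 CPM. Counting both EGFP classes within this run, 17 of 18 KA cells and 3 of 32 saline cells were at 10 CPM or more. Over all titles, cells whose neighbouring titles carry the same group label gave 8.1 for Cpne7, 2.59 for Cpne8 and -3.16 for Cpne4. These were 21 KA EGFP- and 18 saline EGFP- cells, and part of the KA EGFP- cells came from titles M20 to M48, a run without saline cells.

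**Figure D3:**
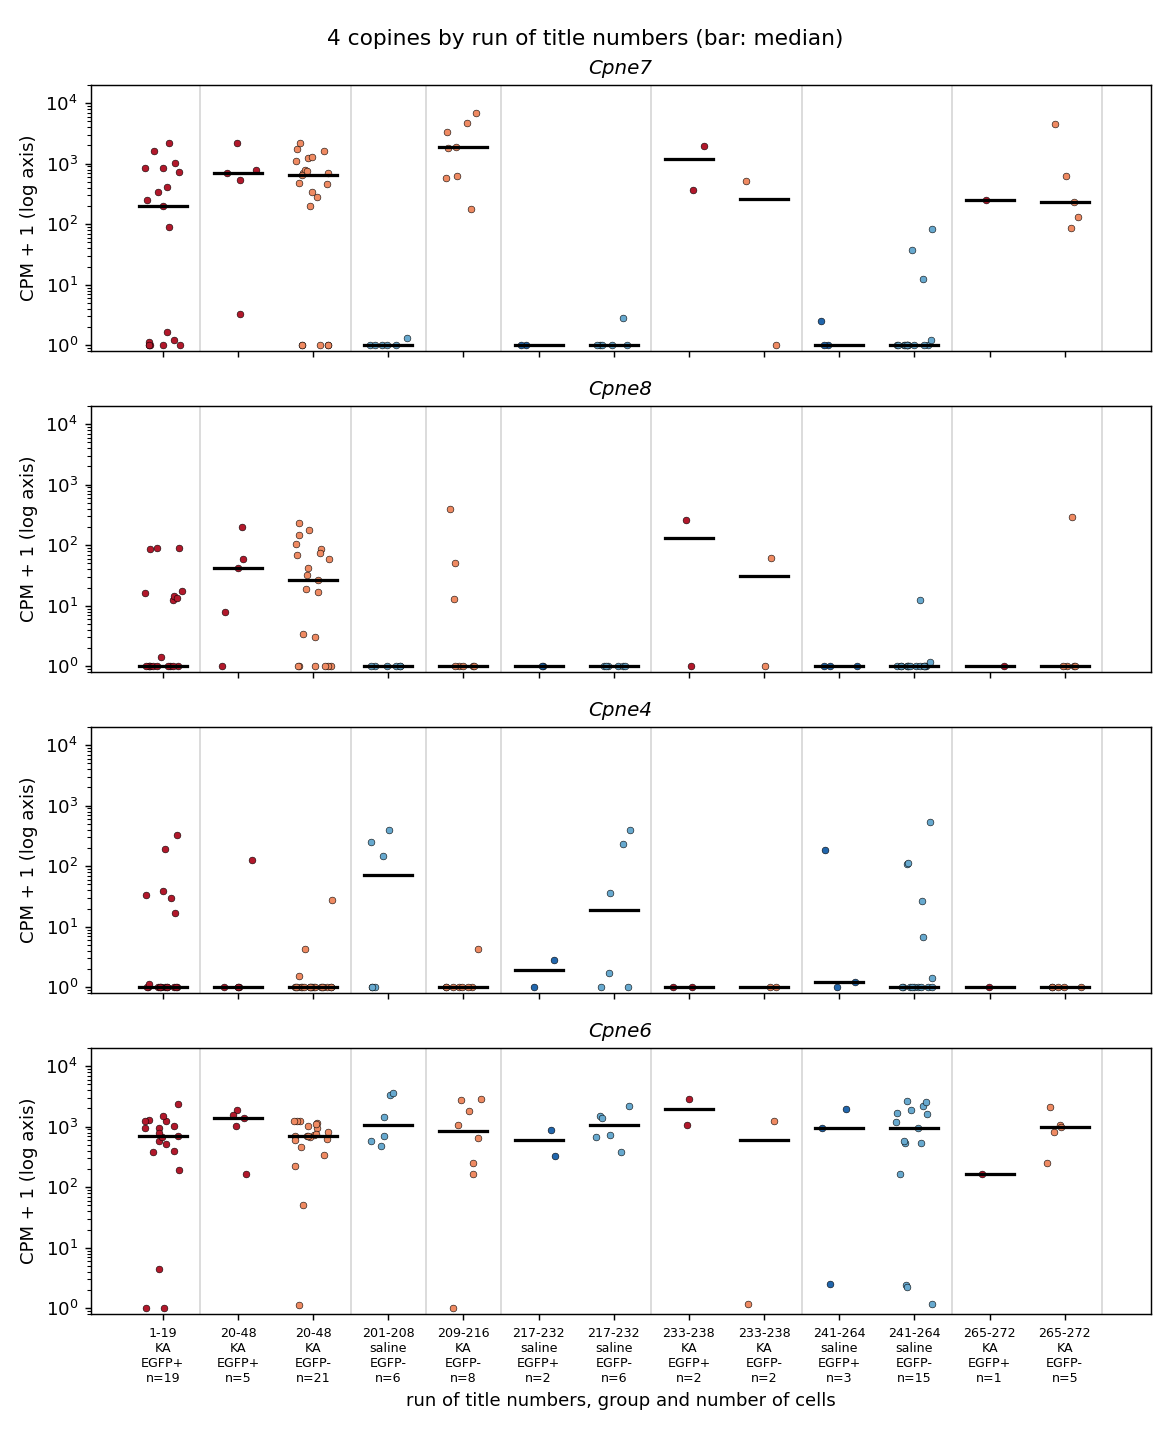
CPM + 1 (log axis) of Cpne7, Cpne8, Cpne4 and Cpne6 by run of title numbers and group, with the median as a bar and the number of cells below. In titles M201 to M272 the high Cpne7 values follow the KA blocks, with 17 of 18 KA cells at 10 CPM or more against 3 of 32 saline cells, while Cpne6 overlaps between KA and saline cells.

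KA EGFP+ against saline EGFP+ cells gave a Cpne7 difference of 6.01, with means of 6.28 (SD 4.43, n = 27) and 0.27 (SD 0.61, n = 5). These cells are not in the comparison above, but part of them come from the same title blocks. Whether they share mice with it is not given. Of 9589 genes, 59.6% were higher by 1 or more in this comparison and 8.54% lower, with a median of 1.36, and 35 genes differed by at least as much as Cpne7. Within titles M201 to M272, 3 KA EGFP+ cells (247.3, 369 and 1983 CPM) lay above all 5 saline EGFP+ cells, a difference of 8.88. There, 37.5% of 8561 genes were higher and 29% lower by 1 or more. Of the 6 copines that passed the filter over all titles, 3 (Cpne1, Cpne7 and Cpne8) were higher and 1 (Cpne5) lower by 1 or more. Cpne1 gave 2.03 (means 2.18 and 0.16) over all titles but -0.16 within titles M201 to M272. With 5 cells, of which 4 were rich in microglia markers, the saline EGFP+ group limits this comparison.

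Marker lists differed along with treatment. Of the 8 granule cell markers, 6 passed the filter for KA EGFP- against saline EGFP- cells, and 5 of these were lower and 0 higher by 1 or more, with a median of -3.04 beside 0.45 for all genes. In titles M201 to M272 alone, 6 of 6 were lower, with a median of -3.38 beside -0.63. Cpne7 and Cpne8 were thus higher, and Cpne4 lower, in the treatment group with the lower granule cell markers. CA3 pyramidal markers, led by Bok in both KA groups, had counts for 5, 5, 3 and 4 of 6 genes in KA EGFP+, KA EGFP-, saline EGFP+ and saline EGFP- cells, with Iyd at 0 in both KA groups and Bok, Nectin3 and Iyd at 0 in saline EGFP+ cells. Their sums ran from 0.196 to 2701 CPM (median 242.6) in KA EGFP+, 0 to 1369 CPM (median 285) in KA EGFP-, 0.782 to 46.4 CPM (median 1.77) in saline EGFP+ and 0 to 386 CPM (median 4.24) in saline EGFP- cells. Interneuron markers, led by Gad1 in every group, had counts for 7, 5, 5 and 8 of 8 genes in that order, with Lhx6 at 0 in KA EGFP+, Slc32a1, Sst and Vip at 0 in KA EGFP- and Sst, Vip and Lhx6 at 0 in saline EGFP+ cells. Their sums had medians of 662, 761, 13.3 and 326 CPM and ran up to 2640, 4306, 648 and 2826 CPM. The part of these lists in the copine levels was not tested. Without the cells with at least 0.1% of counts in microglia markers, KA EGFP- minus saline EGFP- was 7.84 for Cpne7, 3.53 for Cpne8 and -3.34 for Cpne4 (32 and 18 cells).

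**Figure D4:**
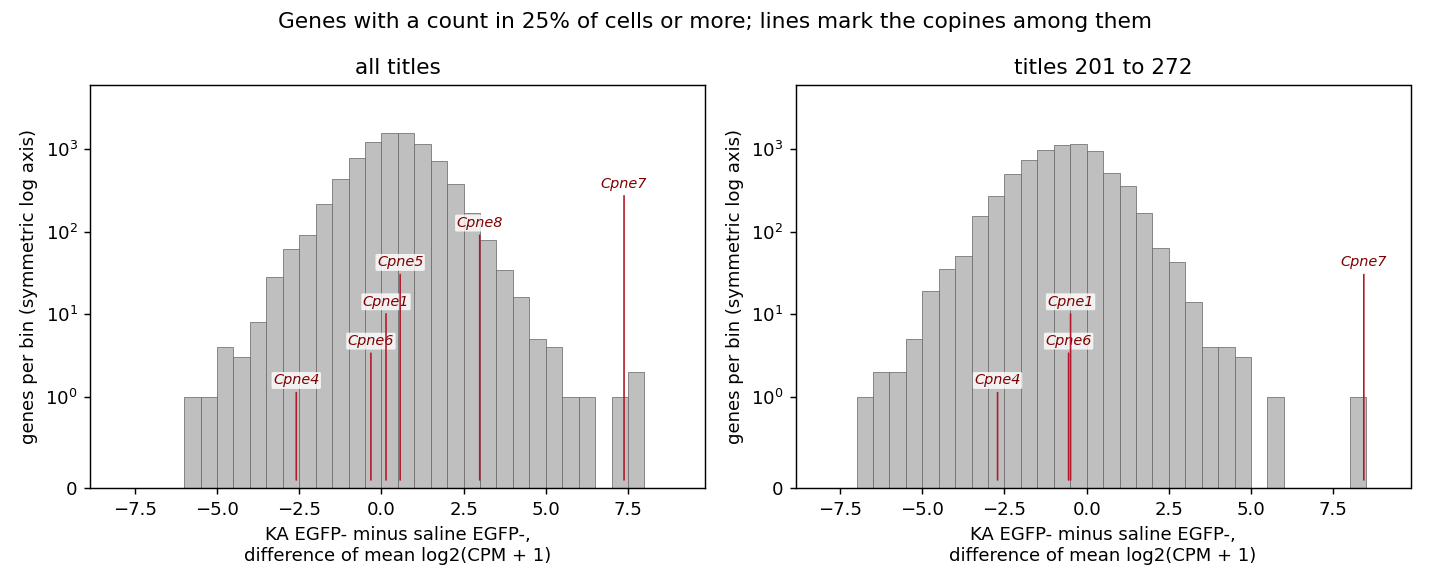
Number of genes (symmetric log axis) by difference of mean log2(CPM+1), KA EGFP- minus saline EGFP-, for all titles and for titles M201 to M272, with lines at the copines that passed the filter on cells with a count. Cpne7 lies at the right edge of both panels (7.38 and 8.43), Cpne4 to the left (-2.59 and -2.71) and Cpne6 near the middle.

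Between the EGFP classes after KA, no copine differed by 1 or more in the same direction over all titles and within each title run. Cpne7 gave -1.74 for KA EGFP+ minus KA EGFP- (means 6.28 and 8.02, SDs 4.43 and 3.9), where 16.4% of 9266 genes were higher and 4.13% lower by 1 or more. Of the 5 copines that passed the filter, 0 were higher and 1, Cpne7, was lower by 1 or more. Within titles M1 to M48 Cpne7 gave -1.34, where 6.09% of genes were higher and 20.2% lower by 1 or more. Within titles M20 to M48, where both classes alternate, it was 0.93 (5 and 21 cells), with 16% of genes higher and 29.6% lower. Within titles M201 to M272 it was 0.07 (3 and 15 cells), with 36.9% of genes higher and 24.4% lower. The 19 KA EGFP+ cells of titles M1 to M19, which have no EGFP- cell beside them, hold all 5 KA EGFP+ cells without a Cpne7 count. Cpne4, which had too few cells with a count to pass the filter, gave 1.3 over all titles, 1.41 within titles M1 to M48 and 1.04 within titles M20 to M48. In titles M20 to M48, 1 of 5 KA EGFP+ cells (at 124 CPM) and 3 of 21 KA EGFP- cells held Cpne4. Within titles M201 to M272 it gave -0.14, where 0 of 3 KA EGFP+ and 1 of 15 KA EGFP- cells held it. For the other 7 members the difference over all titles was under 1 in size. Within titles M1 to M48, 3 of 6 copines that passed were lower by 1 or more, namely Cpne3 (-1.6), Cpne8 (-1.28) and Cpne7. Cpne3 gave -1.37 within titles M20 to M48 and -0.05 within titles M201 to M272, and Cpne8 gave 0.55 and 0.53. Cpne6 gave -0.07 over all titles, 0.95 within titles M20 to M48 and 1.12 within titles M201 to M272. Among cells with neighbouring titles of the same group, the Cpne7 difference was -3.47 (19 and 21 cells). Nearly all of these KA EGFP+ cells came from titles M1 to M19, so this value mostly compares different title runs. Between the EGFP classes after saline, where 12.6% of 8003 genes were higher and 42.2% lower by 1 or more, Cpne7 was near 0 in both and differed by -0.37 (means 0.27 and 0.64). Of the 3 copines that passed the filter there, 0 were higher and 2 were lower by 1 or more, namely Cpne1 (-1.27, means 0.16 and 1.43) and Cpne6 (-1.0, means 8.06 and 9.06). The third, Cpne4, also came to -1.0 when rounded (means 1.86 and 2.85) but lay just short of the limit. Cpne6 turned to 0.68 without saline EGFP+ replicate 7, the cell at 1.56 CPM.

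Cpne8 was likewise higher in KA cells. It lies on chromosome 15 (90487482 to 90679432, minus strand, GRCm38). Its level ran from 0 over a median of 0.446 to 262.1 CPM in KA EGFP+ cells and from 0 over 7.28 to 389 CPM in KA EGFP- cells, whereas all 5 saline EGFP+ cells were at 0 and saline EGFP- cells ran from 0 over a median of 0 to 11.6 CPM. About every other KA cell thus held Cpne8, and saline cells mostly lacked it. After thinning it had a count in 14 of 27 KA EGFP+ (51.9%, exact 95% interval 31.9 to 71.3%) and 20 of 36 KA EGFP- cells (55.6%, 38.1 to 72.1%), against 0 of 5 saline EGFP+ cells, for which the exact interval reaches 52.2%, and 1 of 27 saline EGFP- cells (3.7%, 0.0937 to 19%). KA EGFP- minus saline EGFP- gave 2.99 (means 3.14, SD 3.17, and 0.15, SD 0.7). Within titles M201 to M272 it gave 2.0, where 5 of 15 KA EGFP- cells had a count and Cpne8 did not pass the filter. Unlike Cpne7, Cpne8 went with depth in KA cells (Spearman's rho 0.37 with the total count, 63 cells), with a median depth of 6024055 counts per KA EGFP- cell in titles M20 to M48 and 3271137 in titles M201 to M272. After thinning to 1000000 counts, it still had a count in 15 of 21 KA EGFP- cells of titles M20 to M48 and in 5 of 15 of titles M201 to M272, the same numbers as without thinning.

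Nearly all cells with Cpne8 also held Cpne7, which most KA cells did in any case (52 of 63). Of 63 KA cells, 33 had counts of both, 19 of Cpne7 alone, 1 of Cpne8 alone and 10 of neither, and in saline cells both Cpne8-positive cells also held Cpne7. Spearman's rho between their CPM was 0.42 over the 63 KA cells, 0.51 over the 27 KA EGFP+ and 0.37 over the 36 KA EGFP- cells. It was 0.53 over the 18 KA cells of titles M201 to M272, where 17 of 18 cells held Cpne7 and all 6 cells with Cpne8 were among them. Each cell is its own library, but cells share title runs and may share mice, and the values are descriptions. Over all 95 cells rho was 0.62, which also carries the contrast of KA with saline, and Cpne8 ranked 2 among 8898 genes for likeness to Cpne7. In KA cells alone it ranked 19 of 9265. Over the 63 KA cells, the next highest rho of a copine with Cpne7 was 0.26, for Cpne6. Over the 18 KA cells of titles M201 to M272, rho was 0.46 for Cpne6 with Cpne7 and 0.59 for Cpne6 with Cpne8. The pair of Cpne7 and Cpne8 (0.53) thus did not stand apart there. Cpne7 with Cpne9 gave 0.4, but Cpne9 had only 1 count there, in 1 of the 18 cells.

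**Figure D5:**
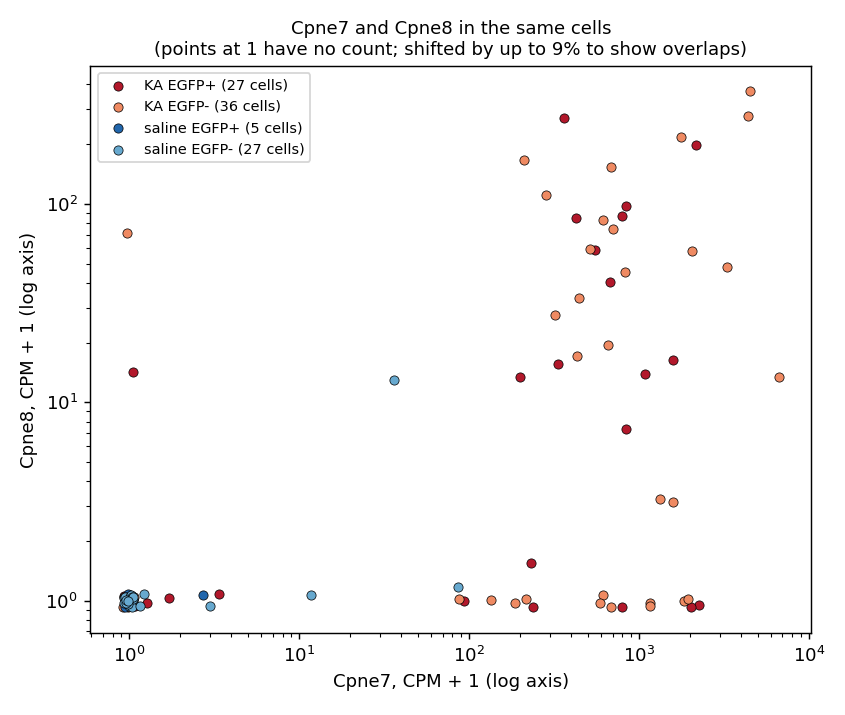
Cpne7 against Cpne8 (CPM + 1, log axes) in each of the 95 cells, coloured by group, with points shifted slightly to show overlaps. Most cells with Cpne8 lie to the right, where Cpne7 is high: 33 of 63 KA cells had both and 1 had Cpne8 alone.

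The 5 genes most like Cpne7 over all 95 cells were Snhg11 (rho 0.66), Cpne8 (0.62), Atp11b (0.6), Cit (0.59) and Kif21b (0.59). Snhg11 is a noncoding RNA, Atp11b a phospholipid flippase, Cit the citron kinase and Kif21b a kinesin. Over the 63 KA cells alone their rho with Cpne7 was 0.54, 0.42, 0.62, 0.35 and 0.42, so each was lower there than over all cells except for Atp11b. At the other end over all 95 cells stood C1ql2, a synaptic organiser secreted by granule cells (-0.61), and Nrgn, the calmodulin-binding protein neurogranin (-0.6). These values also carry the contrast of KA with saline, and their rho over KA cells alone was not calculated.

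Cpne4 ran the other way. It lies on chromosome 9 (104547286 to 105034544, plus strand, GRCm38). KA EGFP+ cells had from 0 over a median of 0 to 322 CPM and KA EGFP- cells from 0 over 0 to 27 CPM. The saline EGFP+ cells had 1.8, 0, 0.221, 0 and 181 CPM and the saline EGFP- cells from 0 over a median of 0 to 541 CPM. Values of 10 CPM or more were thus found in 1 of 36 KA EGFP- cells, against 10 of 27 saline EGFP- cells. After thinning, 3 of 36 KA EGFP- cells (8.33%, exact 95% interval 1.75 to 22.5%) and 13 of 27 saline EGFP- cells (48.1%, 28.7 to 68.1%) had a count. The difference was -2.59 (means 0.27, SD 0.92, and 2.85, SD 3.62), and -2.71 within titles M201 to M272, where 404 of 7146 genes lay as low or lower. Summed over cells it took 0.661 CPM (0.568 to 0.765) in KA EGFP- and 90.04 CPM (88.3 to 91.8) in saline EGFP- cells. Of the KA EGFP+ cells, 7 of 27 were at 10 CPM or more, all from titles M1 to M48. KA EGFP+ minus saline EGFP+ was -0.28, beside a median of 1.36 for all genes. Within titles M201 to M272 it was -1.86, beside a median of 0.22. There, 0 of 3 KA EGFP+ and 3 of 5 saline EGFP+ cells held Cpne4, with 1 saline EGFP+ cell at 10 CPM or more.

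The promoters of Cpne8 and Cpne4 are shown because these genes differed in opposite directions between KA EGFP- and saline EGFP- cells. RefSeq sequences (GRCm38.p6, 250 bases before to 50 bases after the annotated start) were at hand for 6 of the 9 copines in 7 entries, Cpne1, Cpne2, Cpne4 (2 starts), Cpne5, Cpne8 and Cpne9, and were not used here for Cpne3, Cpne6 and Cpne7. They are printed 5′ to 3′ in lower case, with matches to TGACG on either strand, the first letters of the cyclic AMP response element, in capitals. The Cpne8 window is chr15:90679339-90679638 (minus strand) and that of the first Cpne4 start chr9:104569405-104569704 (plus strand).
Cpne8: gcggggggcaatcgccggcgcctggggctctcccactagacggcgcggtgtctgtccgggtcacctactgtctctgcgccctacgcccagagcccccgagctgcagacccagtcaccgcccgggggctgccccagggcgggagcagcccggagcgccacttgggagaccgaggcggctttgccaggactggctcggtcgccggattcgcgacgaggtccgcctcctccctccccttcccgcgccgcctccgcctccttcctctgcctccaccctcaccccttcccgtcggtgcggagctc
Cpne4: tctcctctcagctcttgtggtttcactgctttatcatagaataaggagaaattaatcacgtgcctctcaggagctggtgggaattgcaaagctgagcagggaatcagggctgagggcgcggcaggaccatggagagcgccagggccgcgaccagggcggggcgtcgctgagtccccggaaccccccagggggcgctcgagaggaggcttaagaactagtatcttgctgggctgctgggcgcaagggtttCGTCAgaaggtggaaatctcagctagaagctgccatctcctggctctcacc
TGACG occurred in 3 of the 7 copine windows, those of Cpne1, Cpne2 and the first Cpne4 start, and in 20.8% of 32851 windows of all genes. The full element TGACGTCA and the AP-1 letters TGANTCA occurred in 0 of the 7, against 1.79% and 7.81% of all windows. The E-box letters CANNTG, searched on both strands like the others, occurred in 5 of 7, against 72.3% of all. Cpne8 and Cpne4 shared no match besides the E-box letters.

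The remaining members were sparse. Cpne1, which is known to bind 14-3-3 proteins and to promote neurite outgrowth, had counts in 14 of 27 KA EGFP+, 13 of 36 KA EGFP-, 1 of 5 saline EGFP+ and 8 of 27 saline EGFP- cells, up to 202.8, 265.3, 0.725 and 311 CPM. KA EGFP- minus saline EGFP- gave 0.14 for it. Its level is uncertain, because 83.3% of its exon bases also belong to Gm28036 and 8.96% to Rbm12 on the same strand, and the rules for such reads are not given. Cpne3, which in other cells binds the receptor ErbB2, had counts in 6 of 27, 8 of 36, 1 of 5 and 4 of 27 cells in the same order, and differed by 0.31 in the same comparison. Of 8 KA EGFP- cells with Cpne3, 7 came from titles M20 to M48.

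Cpne5 had low counts in more KA EGFP- than saline EGFP- cells. It was counted in 16 of 36 KA EGFP- and 2 of 27 saline EGFP- cells, but only 3 and 1 of these reached 10 CPM, and the difference was 0.57. After thinning, 11 of 36 (30.6%, exact 95% interval 16.3 to 48.1%) and 1 of 27 cells (3.7%, 0.0937 to 19%) had a count. Within titles M201 to M272 the difference was 0.19. Cpne2 had counts in 5 of 27 KA EGFP+, 2 of 36 KA EGFP-, 0 of 5 saline EGFP+ and 4 of 27 saline EGFP- cells. Cpne9 had them in 4, 3, 0 and 4 cells in that order, with 192 CPM in a KA EGFP+ cell as its highest value. Cpne9 summed to 0.129 CPM over KA EGFP- and 7.95 CPM over saline EGFP- cells, where 3 and 4 cells held it, and its difference of mean log2(CPM+1) was -0.65. Cpne2 summed to 1.44 and 1.73 CPM in the same groups, a difference of -0.05. Sums over so few cells rest on single cells. Of the 36 pairs of copines, 5 shared any stretch of 31 bases between their transcripts, and the most that a pair shared was 3 such stretches, so hardly any sequence of this length fits more than a single member.

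Genes related to the copines by domain or as partners were set beside all genes. Of 66 genes for other C2-domain proteins, 36 passed the filter for KA EGFP- against saline EGFP- cells, and 15 were higher and 1 lower by 1 or more, with a median of 0.77 beside 0.45 for all genes, of which 29.9% were higher and 9.87% lower. Within titles M201 to M272 the counts were 5 higher and 12 lower of 31, with a median of -0.56 beside -0.63 for all genes, of which 9.22% were higher and 38.4% lower. Rasal2 and Dab2ip, GTPase-activating proteins for Ras, differed by 2.68 and 2.14 over all titles and by 2.7 and 1.61 within titles M201 to M272. Cadps, which primes dense-core vesicles, differed by 2.04 and 1.48, and C2cd5 by 2.02 and 1.57. Of 12 annexins, the other large family of calcium-dependent membrane binders, 3 passed, of which 0 were higher and 1 was lower by 1 or more over all titles, too few to set beside those shares.

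Of 6 genes for reported copine partners, 5 passed the filter. Ntrk2, the receptor for BDNF, differed by 2.21 between KA EGFP- and saline EGFP- cells, but by 0.32 within titles M201 to M272. Rac1, which Cpne6 acts on, differed by -0.79 and -2.54, and Ywhag, the 14-3-3 gamma gene, by 0.78 and -1.31. Rack1 gave -0.37 and -1.82 and Cops5 -0.01 and -1.28. Erbb2 did not pass. With a median of all genes of 0.45 over all titles and -0.63 within titles M201 to M272, all 5 partners were lower within titles M201 to M272 than over all titles, as was the median, whereas Cpne7 was not (7.38 and 8.43).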

How the data were processed

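Single-cell libraries of 115 dentate granule cells were grouped by the treatment and EGFP class in the labels. The submitters' processing notes name the GRCm38 build and the tools kallisto, featureCounts, STAR and Trimmomatic, without versions or roles. The authors deposited whole-number counts per gene for all cells and for 95 quality-passed cells, and a normalized signal for the latter, whose scaling is not stated. Counts of spike-in rows (6 in all) were left out. The libraries carry no molecular identifiers, and the labels give no strand information.

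Counts were divided by the total of the cell and multiplied by 1000000 (CPM). Means of log2(CPM+1) over cells, with a pseudocount of 1, were compared between groups, for genes with a count in at least 25% of both groups' cells. Pooled CPM has exact 95% Poisson intervals, and shares of cells, after thinning to 1000000 counts, have Clopper-Pearson 95% intervals. As each group is 1 sample of unknown mice, no significance test was made. Exon lengths and overlaps came from GENCODE on GRCm38 and promoters from RefSeq. Python 3.11.15, pandas 2.3.3, numpy 2.4.6 and scipy 1.17.1 were used. The calculation of the differences was checked on simulated counts, with changes set in genes of higher mean level and mild spread between cells. This check does not cover genes without a count in many cells, as most copines are.

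The members and lists were chosen with earlier results of these data known. All 9 copines are named, and so are the 5 genes with the highest Spearman's rho with Cpne7. From the lists of C2-domain proteins, annexins and partners, genes are named at 2 or more in size over all titles and at least 1 with the same sign within titles M201 to M272. The partners Rac1, Ywhag, Rack1, Cops5, Erbb2 and Ntrk2, as well as C1ql2 and Nrgn, are named outside this rule, after their values were seen. Alternatives were other pseudocounts, the authors' signal, thinning, pooling, subsets of cells and titles, other filters and another size of difference.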

Additional observations from a re-analysis of the deposited data

Results flagged for a closer look

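Among the 5 saline EGFP+ cells, 1 cell stood apart from the others for each of 5 copines. The values were 0.725 CPM for Cpne1, 10.2 CPM for Cpne3, 181 CPM for Cpne4 and 1.56 CPM for Cpne7, where the other cells were lower, and 1.56 CPM for Cpne6, where the others were higher. For Cpne3, Cpne4, Cpne6 and Cpne7 it was the same cell, replicate 7 in order of accession, and for Cpne1 it was replicate 6, with 1 count. Chance alone flags about 1 in 20 groups of normally spread values, a rate that does not hold for groups of mostly zeros, where any cell with a count stands apart, as for Cpne1, Cpne3 and Cpne7 here. Without replicate 7, saline EGFP+ minus saline EGFP- was 0.68 for Cpne6, against -1.0 with it.

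Copines were also counted in cells outside the quality-passed table. In the 4 left-out KA cells, which had 17928 to 1107068 counts each, Cpne7 took 211.1 pooled CPM (exact 95% Poisson interval 192 to 231.1) and had counts in 2 of 4 cells. In the 16 left-out saline cells it had no count, which allows up to 0.328 CPM (3 counts of their summed total). Cpne1 took 319 pooled CPM (296 to 343) in the left-out KA cells, all from 1 cell, against 0.328 CPM (0.0677 to 0.96) in the left-out saline cells. Cpne6 had no count in the 4 left-out KA cells, which allows up to 1.36 CPM, against 1068 CPM in the left-out saline cells, where 8 of 16 held it. In this it differed from the kept cells. Cpne8 ran otherwise there, with 0 CPM in the left-out KA cells and 5.8 CPM in the left-out saline cells.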

How the results depend on the processing

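In all 17 alternatives tried, the Cpne7 difference between KA EGFP- and saline EGFP- cells kept its sign, from 5.02 (pseudocount of 10) to 9.57 (pseudocount of 0.1), and leaving out each block of titles gave 6.66 to 8.43. Among the 17, keeping titles M201 to M272 and leaving out titles M20 to M48 are the same subset (15 and 27 cells). Between KA EGFP+ and saline EGFP+ cells it ran from 3.96 to 8.88 under 14 alternatives. For KA EGFP+ minus KA EGFP- it turned to 0.93 within titles M20 to M48 and to 0.07 within titles M201 to M272, and Cpne4 turned to -0.14 within the latter. For saline EGFP+ minus saline EGFP-, pooled CPM gave -2.65 for Cpne7. Cpne6 turned to 0.47 there without cells rich in microglia markers (1 and 18 cells left) and ran from -1.72 to 0.68 when each saline EGFP+ cell was left out in turn. Cpne1 for KA EGFP+ minus saline EGFP+ turned to -0.16 within titles M201 to M272. The cause was not tested in any of these.

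The number of copines lower by 1 or more in KA EGFP- than saline EGFP- cells was 2 with pooled CPM, and 1 to 2 when each block of titles was left out in turn, where Cpne6 joined without titles M241 to M264 (-1.36). With a count in at least 50% of cells required, 1 member was higher and 0 lower, since fewer genes were compared. The percentages of all genes higher and lower were 12.6% and 4.59% with no filter, and 8.06% and 2.31% for a difference of 2. Between KA EGFP+ and saline EGFP+ cells 5 copines were higher with a pseudocount of 0.1, with the deposited signal and with pooled CPM. Of all genes 26.2% were higher there with no filter, and 32.9% were higher and 3.51% lower for a difference of 2. Copines lower there numbered 0 with a pseudocount of 10, and 2 for cells also labelled passed or without cells rich in microglia markers. Of 504 alternative values over 36 differences, 6 changed the sign of a difference of 1 or more in size. Another 20 moved by more than the SD over cells, and 478 stayed within it. That SD is a wide limit, so staying within it says little about stability. Cpne6 for KA EGFP- minus saline EGFP-, for example, ran from -1.36 to 0.15 and always stayed within it (SDs 2.87 and 3.13). The 504 values also include the repeated subset of titles M201 to M272 named above. A change of sign in a smaller difference was not counted among the 6. Cpne8 for KA EGFP+ minus KA EGFP-, for example, went from -0.56 to 0.55 within titles M20 to M48. The alternative of cells with neighbouring titles of the same group was chosen after seeing the data, and could not be computed for comparisons with saline EGFP+ cells. No paired analysis was possible because the labels tie no cell to a mouse. All copines but Cpne6 and Cpne7 had no count in most of the 95 cells, so their means rest on few cells.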
